A study of Mus musculus with 6 samples.

Results

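The levels of 10 genes of iron handling were followed in mouse spleen after total body irradiation: Trf, Tfrc, Tfr2, Steap3, Slc11a2, Slc11a1, Slc40a1, Hmox1, Fth1 and Ftl1. The genes were chosen by name for their roles in iron uptake, storage, export and haem degradation. Earlier results of these data were known when they and the gene lists used below were chosen. A probe belonged to one of the genes if its gene name on the array was the listed symbol. By symbol 9 of the 10 genes were found, with 16 probes on 25 spots. Tfr2 stands on the array under its older symbol Trfr2 and was matched through its RefSeq accession, which brought the total to 17 probes on 26 spots, among 55681 distinct probes on 59305 non-control spots. One group of mice had received 900 cGy of X-rays to the whole body 24 h before the spleen was taken, and the other was resting and had received 0 cGy. All mice were of the congenic strain B10.BALB-16.C2A, and their age is not given in the sources used here. Each array was hybridised with total RNA of homogenised splenocytes pooled from 3 mice, with 3 pools in each group.

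The spleen both uses iron and returns it to the blood. Red cell precursors take up iron bound to transferrin through transferrin receptor 1; inside the endosome the iron is freed, reduced by a ferrireductase of the Steap family and carried into the cytosol by a divalent metal transporter. Red pulp macrophages engulf old red cells, open the haem ring with haem oxygenase, keep the iron in ferritin or send it out through ferroportin. Iron-regulatory proteins bind elements in the transcripts of several of these genes, so their messenger RNA and protein need not move together.

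Messenger RNA was measured with 6 one-colour arrays, on which between 39036 and 41267 probes were well above background and 0 spots were saturated. Values are log2 signals minus the log2 of the array's 75th percentile, so that 0 is the signal at that percentile and 1 unit is a factor of 2. The spleen stroma markers Tlx1 and Nkx2-5 were well above background on all 6 arrays, and both were higher at 900 cGy (1.66 and 1.36). The arrays share 1 slide and 1 scan; the 0 cGy pools and 900 cGy pool 1 lie in slide row 1, while 900 cGy pools 2 and 3 lie alone in row 2. Values with the slide row as a block or from row 1 alone therefore rest on 1 array at 900 cGy and say little about a call. The third 0 cGy pool stood apart from its group, with erythroid markers on average 1.55 log2 units lower (a difference of -1.55) and neutrophil markers 1.23 lower (-1.23) than in pools 1 and 2, and where leaving it out changes the call of a gene named here, the value without it is given. The p-values measure the spread between pools, and 3 pools in each group limit the precision. In pooled tissue RNA, fewer cells of a type and less RNA per cell cannot be told apart.

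The probes of Tfrc, Hmox1 and Ftl1 are shown first, because there several probes of 1 gene can be set against each other. Each is a 60-base oligonucleotide, read from the array files, 5′ to 3′. Some are printed whole and of the others only the last 30 bases are shown. Capitals mark AATAAA, the usual polyadenylation signal near the end of a transcript; the exon or untranslated region each probe lies in was not analysed here.
Tfrc A_65_P06446: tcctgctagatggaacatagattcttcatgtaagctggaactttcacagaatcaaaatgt
Tfrc A_51_P167876: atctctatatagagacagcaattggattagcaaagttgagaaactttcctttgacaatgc
Tfrc A_52_P228236, last 30 bases: aaccatcattacgcatctaatcagttttgc
Hmox1 A_55_P2029687: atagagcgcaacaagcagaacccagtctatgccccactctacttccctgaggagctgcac
Hmox1 A_51_P263965, last 30 bases: cgactgctgtcccccagtgccatggccact
Ftl1 A_55_P1983959: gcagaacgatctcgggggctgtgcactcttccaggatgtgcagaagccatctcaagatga
Ftl1 A_55_P1968245, last 30 bases: aaaAATAAAgctttttgagacagcaaaaaa

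The 10 genes did not move as 1 block. At 900 cGy, 5 genes were higher (Trf, Slc11a1, Slc40a1, Hmox1 and Fth1), 3 were lower (Tfrc, Tfr2 and Slc11a2), and Steap3 and Ftl1 did not pass the test by their brightest probe. The test was limma's moderated test, two-sided, with Benjamini-Hochberg adjustment over all 39683 probes tested and a threshold of 0.05, and each gene is represented by its brightest probe. A call was common on these arrays: over 26667 genes tested in the same way, 58.6% passed, 28.0% higher and 30.6% lower, and the groups did not overlap for 67.4%. The 8 calls among 10 genes, and the 8 genes without overlap, are read against those shares. Over 2-fold higher were 4 of the 10 genes, against 14.2% of all genes, and over 2-fold lower were 2, against 9.35%. The median log2 change was 0.36 over the 10 genes and -0.06 over all genes tested. Over the 17 probes 8 were higher, 5 were lower and 4 did not pass, where 57.5% of all probes passed, 26.4% higher and 31.0% lower. The groups did not overlap for 13 of the 17, against 65.7% of all probes, 7 were over 2-fold higher, against 13.0%, and 4 over 2-fold lower, against 9.45%.

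**Figure D1:**
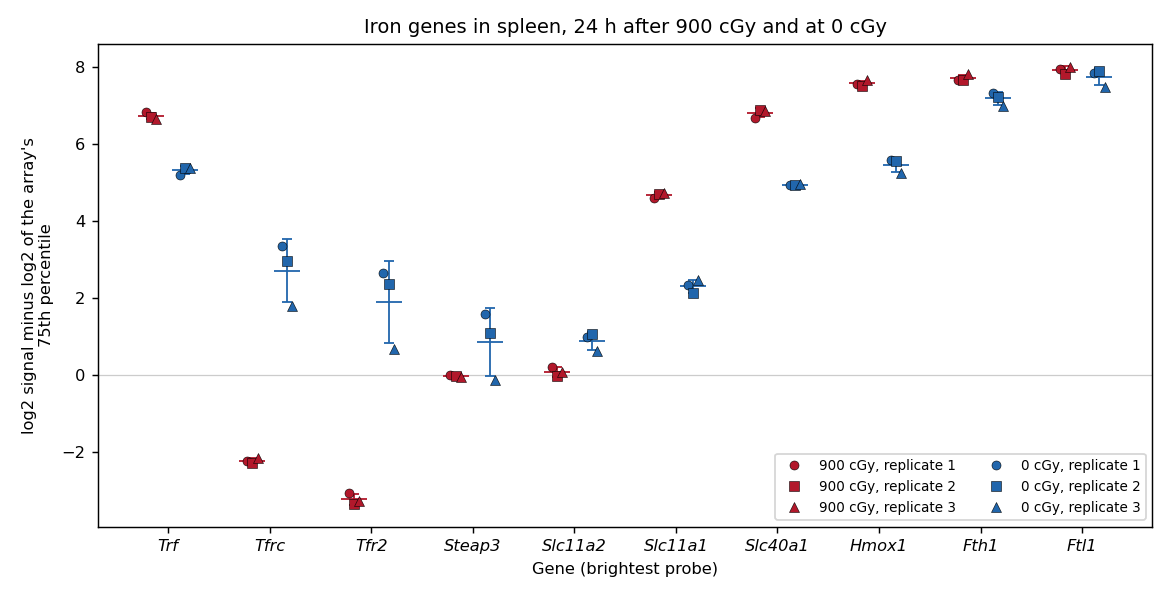
Log2 signal minus the log2 of the array's 75th percentile (y axis) for the brightest probe of each gene (x axis). Red symbols are the 900 cGy pools and blue symbols the 0 cGy pools, with the symbol shape giving the replicate, the horizontal line the mean and the bar ± 1 SD (n = 3); Tfrc and Tfr2 lie below 0 in all 3 pools at 900 cGy and above 0 in all 3 pools at 0 cGy.

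Trf encodes transferrin, the plasma carrier of iron. Its probe A_55_P2037584 (mm9, chr9:103111207-103111266, minus strand) read 6.82, 6.71 and 6.66 in 900 cGy pools 1 to 3, against 5.21, 5.39 and 5.38 in 0 cGy pools 1 to 3. All 900 cGy pools lay above all 0 cGy pools, and the spread within each group was small. The log2 change was 1.41 ± 0.10 (SE), 2.65-fold higher, with an adjusted p of 0.000105 (limma). The second probe, A_55_P2037585, gave 1.51 ± 0.09 (adjusted p = 8.39e-05, limma). Of the 26667 genes tested, 2089 had a larger change upwards than Trf.

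Tfrc, transferrin receptor 1, takes the transferrin-iron complex into the cell. Its probe A_52_P228236 (chr16:32632255-32632314, plus strand) is printed on 10 spots, whose SD within an array was between 0.05 and 0.08 log2 units. It read -2.21, -2.26 and -2.15 in the 900 cGy pools, against 3.37, 2.97 and 1.80 in the 0 cGy pools. The 900 cGy pools lay close together and far below every 0 cGy pool, and the third 0 cGy pool was the lowest of its group. On the log2 scale Tfrc changed by -4.92 ± 0.38 (SE; adjusted p = 0.000139, limma), and 31 of the 26667 genes had a lower one.

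The further Tfrc probes gave the same direction with other sizes. A_65_P06446 (chr16:32620470-32620529) read -3.59, -3.38 and -3.44 in the 900 cGy pools, against 1.14, 0.87 and -0.29 in the 0 cGy pools, a change of -4.04 ± 0.36 (16.5-fold lower; adjusted p = 0.000206, limma). A_51_P167876, which spans a gap in the genome (chr16:32624877-32625093), was well above background on all 3 arrays at 0 cGy and on 0 of 3 at 900 cGy. Its mean was -8.21 ± 0.27 at 900 cGy and -2.61 ± 0.69 at 0 cGy (SD, n = 3 each), which gives Tfrc as at least 11.2-fold lower by this probe (adjusted p = 8.61e-05, limma). Here a bound sets the mean of the brighter group against, on each dim array, the probe's own signal or, where that is higher, the dimmest signal that still counted as well above background. It holds for the processed signals only, since with normexp background correction this probe changed by -1.91.

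Tfr2 encodes transferrin receptor 2, which binds transferrin less tightly and, in mouse, acts as an iron sensor in liver and red cell precursors. Its 1 probe, A_55_P1955532 (chr5:138028646-138028705, plus strand), read -3.05, -3.34 and -3.25 in the 900 cGy pools, against 2.65, 2.37 and 0.70 in the 0 cGy pools. The groups did not overlap, and as for Tfrc the third 0 cGy pool was the lowest of its group. The log2 change was -5.12 ± 0.49 (SE), 34.8-fold lower (adjusted p = 0.000275, limma), and 27 of the 26667 genes had a lower one. Without the third 0 cGy pool the change was -5.72 (adjusted p = 0.000112, limma).

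Steap3, the main ferrireductase of the endosome in red cell precursors of the mouse, did not pass. Its brighter probe, A_55_P2096883 (chr1:122124269-122124328, minus strand), read 0.02, -0.02 and -0.04 in the 900 cGy pools, against 1.60, 1.09 and -0.11 in the 0 cGy pools. The 900 cGy pools were nearly equal, and the groups overlapped through the third 0 cGy pool alone. By the brighter probe the change was -0.87 log2 units (95% confidence interval -1.85 to 0.11; adjusted p = 0.111, limma), and the second probe, A_55_P2096887, gave -0.78 (adjusted p = 0.0797, limma). Without the third 0 cGy pool the changes were -1.36 (adjusted p = 0.00142) and -1.17 (adjusted p = 0.000681), both lower by limma. Scaling to the spike-in controls also brought the brighter probe past the threshold, with a change of -1.14 (adjusted p = 0.00759, limma).

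Slc11a2 encodes the divalent metal transporter that moves iron out of the endosome. Its brighter probe, A_51_P388737 (chr15:100218333-100218392, minus strand), read 0.22, -0.02 and 0.08 in the 900 cGy pools, against 1.0, 1.07 and 0.63 in the 0 cGy pools. All 900 cGy pools lay below all 0 cGy pools, by a smaller distance than for the receptors. Slc11a2 changed by -0.81 ± 0.14 log2 units (SE), 1.75-fold lower (adjusted p = 0.00327, limma). The other probe, A_52_P254298 (chr15:100240516-100240575), read -3.79, -3.62 and -3.69 in the 900 cGy pools, against -2.90, -2.99 and -3.72 in the 0 cGy pools. There the third 0 cGy pool lay within the 900 cGy range, and the change of -0.50 did not pass (95% confidence interval -1.03 to 0.03; adjusted p = 0.0969, limma). It passed without that pool (-0.76, adjusted p = 0.00127) and with spike-in scaling (-0.77, adjusted p = 0.00889). Within slide row 1, with 1 array at 900 cGy, the brighter probe changed by -0.68 (adjusted p = 0.0878, limma).

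Erythroid markers moved with these uptake genes. All 10 markers of the list, among them Slc4a1, Epb42, Klf1, Gata1, Kel, Rhd, Ermap and Alas2, were lower at 900 cGy, with a median log2 change of -6.53. Their summed level, in multiples of the array's 75th percentile, was between 11.5 and 17.5 in the 900 cGy pools and between 148 and 378 in the 0 cGy pools, with the third 0 cGy pool at the low end. Rhd was well above background on 0 of 3 arrays at 900 cGy and Klf1 on 1. The third 0 cGy pool lay below the mean of the other two by 1.37 for Tfrc (a difference of -1.37 log2 units), 1.81 for Tfr2 (-1.81), 1.46 for Steap3 (-1.46) and 0.41 for Slc11a2 (-0.41). For Trf, Slc11a1 and Slc40a1 that difference was 0.07, 0.23 and 0.04. By the brightest probes it was -0.33 for Hmox1, -0.28 for Fth1 and -0.38 for Ftl1, close to that of Slc11a2. By the further probes it was -0.78 for Slc11a2, -0.11 for Hmox1 and -0.21 for Ftl1. The part of the erythroid cells in the changes of the uptake genes was not tested.

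Slc11a1, Slc40a1 and Hmox1, genes of the macrophage side of iron recycling, were higher at 900 cGy. The first of them encodes a metal transporter of the phagosome membrane, known for resistance to intracellular pathogens, and was measured by A_51_P186476 (chr1:74432161-74432220, plus strand). It read 4.61, 4.71 and 4.73 in the 900 cGy pools, against 2.33, 2.14 and 2.47 in the 0 cGy pools. Every 900 cGy pool lay well above every 0 cGy pool. The log2 change was 2.37 ± 0.11 (SE), 5.17-fold higher (adjusted p = 6.46e-05, limma), and 313 of the 26667 genes had a larger one.

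Slc40a1 encodes ferroportin, the iron exporter. Its probe A_51_P389988 (chr1:45965255-45965314, minus strand) read 6.69, 6.90 and 6.87 in the 900 cGy pools, against 4.94, 4.94 and 4.98 in the 0 cGy pools. The 0 cGy pools differed from each other by less than the 900 cGy pools did, and no pool crossed over. The log2 change was 1.87 ± 0.09 (SE), 3.65-fold higher (adjusted p = 6.67e-05, limma), with 774 genes above it.

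Hmox1 encodes the inducible haem oxygenase, which releases iron from haem. Its brighter probe, A_51_P263965 (chr8:77624207-77624266, plus strand), read 7.56, 7.52 and 7.65 in the 900 cGy pools, against 5.58, 5.56 and 5.24 in the 0 cGy pools. Its second probe, A_55_P2029687 (chr8:77620797-77620856), read 3.75, 3.94 and 3.91 in the 900 cGy pools, against 1.32, 1.08 and 1.09 in the 0 cGy pools. By both probes, whose sequences are shown above, the groups were clearly apart. The log2 change was 2.12 ± 0.12 (SE; 4.34-fold higher, adjusted p = 7.24e-05) by the brighter probe and 2.70 ± 0.11 (6.48-fold higher, adjusted p = 5.63e-05) by the second, both with limma.

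Macrophage markers moved the same way as these genes. All 13 of Spic, Vcam1, Cd5l, Adgre1, C1qa, C1qb, C1qc, Cd68, Mrc1, Siglec1, Axl, Fcgr1 and Csf1r were higher at 900 cGy, with a median log2 change of 1.90. Their summed level was between 883 and 908 in the 900 cGy pools and between 260 and 280 in the 0 cGy pools. Spleen stroma and follicular dendritic cell markers were also mostly higher, 4 of 5, with Madcam1 at 1.14, Ccl19 at 0.77 and Cr2, also a B cell gene, lower (-2.32). B cell markers (6 of 6 lower, median -2.86) and T cell markers (6 of 6 lower, median -2.28) moved the other way. Neutrophil markers were mixed, with 1 of 9 higher and 3 lower. Their summed level was between 476 and 540 in the 900 cGy pools and 943, 819 and 430 in 0 cGy pools 1 to 3. Only the third 0 cGy pool lay below the 900 cGy pools, and the other 0 cGy pools lay above them. Slc11a1 is also expressed by neutrophils; the part of any of these cell types in the changes was not tested.

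**Figure D2:**
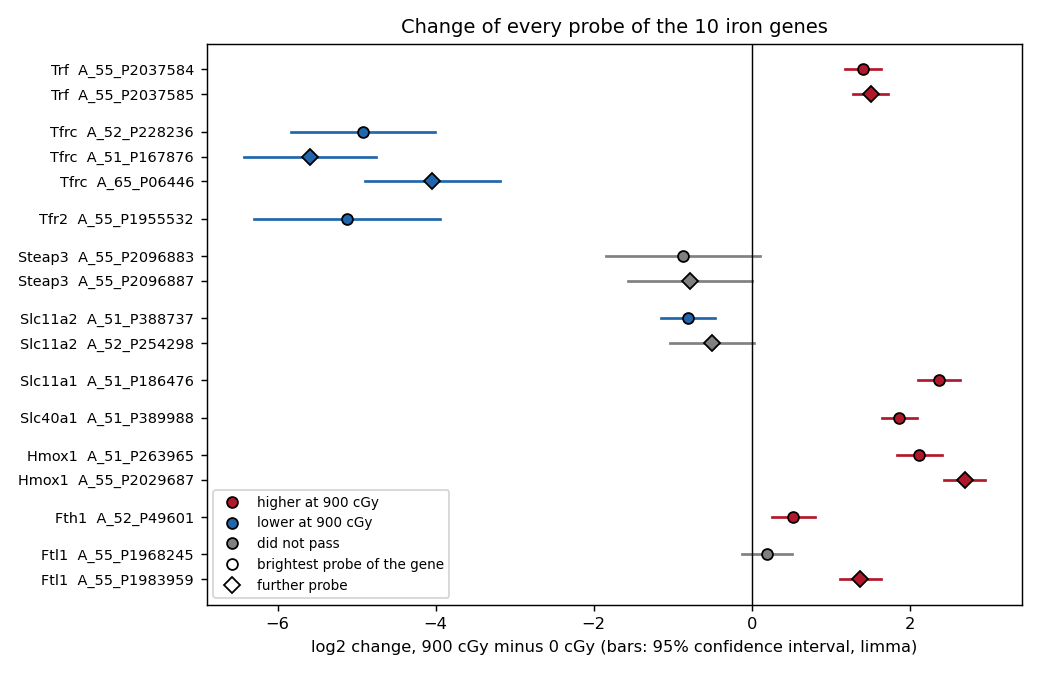
Log2 change, 900 cGy minus 0 cGy (x axis), of all 17 probes of the 10 genes (y axis), with the 95% confidence interval of limma as the bar. Circles are the brightest probe of a gene and diamonds its further probes; red is higher, blue lower and grey did not pass, and the probes of Ftl1 and of Slc11a2 are the ones that differ in their call.

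The ferritin genes changed little or disagreed between probes. Fth1, the ferritin heavy chain with ferroxidase activity, was measured by A_52_P49601 (chr19:10059485-10059544, plus strand). It read 7.65, 7.67 and 7.82 in the 900 cGy pools, against 7.33, 7.23 and 7.0 in the 0 cGy pools. The groups did not overlap, with a log2 change of 0.53 ± 0.12 (SE), 1.44-fold higher (adjusted p = 0.00789, limma). The call did not hold with spike-in scaling (0.26, adjusted p = 0.279). From slide row 1, with 1 array at 900 cGy, the change was about as large at 0.47 (adjusted p = 0.0803 with the row as a block and 0.147 in row 1 alone).

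Ftl1 encodes the ferritin light chain. Its brighter probe, A_55_P1968245 (chr7:52713309-52713368, minus strand), whose end carries the AATAAA shown above, read 7.96, 7.83 and 8.02 in the 900 cGy pools, against 7.84, 7.90 and 7.49 in the 0 cGy pools. The groups overlapped, and the change of 0.19 (95% confidence interval -0.13 to 0.51) did not pass (adjusted p = 0.261, limma); it was -0.08 with spike-in scaling and passed with normexp and quantile normalization (0.29, adjusted p = 0.0202). The other probe, A_55_P1983959, spans a gap between chr7:52714014 and 52714495 on the same strand. It read 7.39, 7.35 and 7.37 in the 900 cGy pools, against 6.19, 5.95 and 5.86 in the 0 cGy pools. Here the groups were far apart, with a log2 change of 1.37 ± 0.11 (SE), 2.58-fold higher (adjusted p = 0.000146, limma). The within-array difference between the changes of the 2 probes was -1.18 (exact permutation test, two-sided, p = 0.1, the smallest that 3 against 3 arrays can give). Ferritin genes have near-identical processed copies elsewhere in the mouse genome, so which transcripts each probe measured is uncertain.

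Tfrc and Tfr2, Slc11a1 and Slc11a2, and Fth1 and Ftl1 were compared as pairs within arrays, which does not depend on the scaling between arrays. The change of Slc11a1 exceeded that of Slc11a2 by 3.18 log2 units, and the gap between their probes ranged from 4.39 to 4.73 in the 900 cGy pools and from 1.07 to 1.84 in the 0 cGy pools (exact permutation test, two-sided, p = 0.1, adjusted p = 0.15 over the 3 pairs). The change of Fth1 exceeded that of Ftl1 by 0.34 with the brightest probes (exact p = 0.1, adjusted p = 0.15), and was below it by 0.84 (a difference of -0.84) with the other Ftl1 probe. Tfrc and Tfr2 differed in their change by 0.20 (exact p = 0.4, adjusted p = 0.4). The gap between them was 0.84 to 1.1 in the 900 cGy pools and 0.61 to 1.1 in the 0 cGy pools, and the ranges overlap. With 3 arrays a group none of these tests could reach the threshold.

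Beyond the 10 genes, 58 genes of iron and haem handling were listed by role, of which 55 were tested. At 900 cGy 30 were higher, 12 were lower and 13 did not pass, with a median log2 change of 0.64. Over all genes 28.0% were higher and 30.6% lower, and the counts of each list below are read against these shares. With spike-in scaling 24 were higher and 17 lower, and without the third 0 cGy pool 29 were higher and 17 lower. These counts are read against the calls over all 39683 probes in the same setting. Those were 6702 higher and 16089 lower with spike-in scaling, and 10808 higher and 13006 lower without the third 0 cGy pool. Among 11 other genes of uptake and endosomal release 7 were higher and 0 lower by their brightest probes (median 0.97). Exoc6 did not pass by its brighter probe (-0.28, adjusted p = 0.0506, limma). Its other probe, A_52_P219661, was called lower (-0.73, adjusted p = 0.00085, limma). Steap4 and Steap1, both of the Steap family, had the largest called changes, in the other direction from Steap3's value. Steap4 read -1.73 ± 0.24 at 900 cGy and -4.53 ± 0.09 at 0 cGy (SD, n = 3 each). Its change was 2.79 (adjusted p = 6.67e-05), and that of Steap1 was 2.70 (adjusted p = 0.000132), both with limma. Steap1 was well above background on 3 of 3 arrays at 900 cGy and on 1 of 3 at 0 cGy, so the size of its change is uncertain. Steap2 (1.64), Lrp1 (2.07), a receptor for haem bound to haemopexin, and Cybrd1 (1.04), a ferrireductase of the cell surface, also passed. Lcn2 (-0.50) and Ltf (-0.68), iron-binding proteins of neutrophil granules, did not pass. Without the third 0 cGy pool both passed, at -1.07 for Lcn2 (adjusted p = 0.0129) and -1.22 for Ltf (adjusted p = 0.006, limma).

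Of 11 genes that scavenge, move or break down haem 8 were higher and 0 lower (median 0.84). Cd163, the macrophage receptor for haemoglobin bound to haptoglobin, read -1.67 ± 0.11 at 900 cGy and -3.71 ± 0.47 at 0 cGy (SD, n = 3 each; change 2.04, adjusted p = 0.000526, limma). Slc46a1, which carries folate and haem, changed by 1.90 (adjusted p = 6.67e-05, limma). Blvra, which reduces the biliverdin that haem oxygenase makes, was higher (1.33), as was Hmox2, the constitutive haem oxygenase (0.84). Blvrb (-0.49), another biliverdin reductase, did not pass, and without the third 0 cGy pool it did (-0.85, adjusted p = 0.00162, limma). The haem exporter Flvcr1 (0.43), on the array as Mfsd7b, did not pass (it did without 0 cGy pool 2, at 0.58), while Flvcr2 (1.66), on the array as Mfsd7c, was higher.

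Mitochondrial iron genes went the other way: of 8 genes 6 were lower and 0 higher, with a median of -1.55. Slc25a37, the mitochondrial iron importer of red cell precursors, read 3.28 ± 0.04 at 900 cGy and 6.63 ± 0.60 at 0 cGy (SD, n = 3 each; change -3.35, adjusted p = 0.000184, limma). Abcb10, its partner in the inner membrane, changed by -3.23 (adjusted p = 0.000683, limma). Glrx5 (-1.97), a glutaredoxin that hands iron-sulfur clusters on, was also lower. Slc25a28 (0.08), the importer used by other cells, and the cluster scaffold Iscu (0.27) did not pass. Without 0 cGy pool 1 Iscu did by this brighter probe (0.31, adjusted p = 0.049, limma). The other Iscu probe, A_55_P2020549, went the other way and did not pass (-0.33, adjusted p = 0.0803, limma). In the third 0 cGy pool Slc25a37 read 5.94 and Abcb10 2.42, the lowest of their group for both genes, as for Tfrc.

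The genes of ferritin handling and of the iron-regulatory proteins were mixed. Of 4 ferritin-handling genes tested, Bdh2, an enzyme proposed to make a mammalian siderophore, was higher (1.38, 2.60-fold, adjusted p = 0.0003, limma), and the iron chaperones Pcbp1 (-0.32) and Pcbp2 (-0.39, adjusted p = 0.0147, limma) were lower. The calls of both chaperones were lost without 900 cGy pool 2 (Pcbp1 -0.30, Pcbp2 -0.38) and without 900 cGy pool 3 (Pcbp1 -0.31, Pcbp2 -0.37), and that of Pcbp1 also without 0 cGy pool 2 (-0.31). Ncoa4 (0.14), which delivers ferritin to the lysosome, did not pass. Aco1, iron-regulatory protein 1, was higher (0.67, adjusted p = 0.00163, limma), Ireb2, iron-regulatory protein 2, was lower (-0.55, adjusted p = 0.00841, limma), and Fbxl5 (-0.03), which marks that protein for degradation, did not pass.

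Of 10 tested genes listed under iron oxidation for export and the hepcidin axis 8 were higher and 1 was lower (median 1.57). Hamp2, a hepcidin gene of the mouse, read -0.29, 0.08 and -0.48 in the 900 cGy pools, against -4.09, -3.05 and -4.25 in the 0 cGy pools. No pools overlapped, and the change was 3.56 ± 0.33 (SE, 11.8-fold higher, adjusted p = 0.000243, limma). Exocrine pancreas markers, given below, were higher as well, and their part in the Hamp2 change was not tested. Hamp, the main hepcidin gene, was well above background on 0 of the 3 arrays in each group and was not tested. Cp, the ferroxidase ceruloplasmin, changed by 1.82 (adjusted p = 0.000107, limma), and Bmp6 (1.32), Bmp2 (1.68), Smad6 (1.64) and Id1 (1.59), ligands and target genes of BMP signalling, were all higher. Fam132b, the red cell precursors' hormone erythroferrone, did not pass by its brighter probe (-0.54, adjusted p = 0.238), whereas its 10-spot probe A_51_P121179 was well above background on 0 of 3 arrays at 900 cGy and 3 of 3 at 0 cGy. By that probe Fam132b read -8.07, -8.02 and -8.11 in the 900 cGy pools, against -3.38, -3.18 and -5.74 in the 0 cGy pools. The third 0 cGy pool was the lowest of its group. This probe was called lower, with a bound of at least 3.99-fold (adjusted p = 0.00236, limma).

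Among 8 transcription factors of haem and iron genes 5 were higher and 2 lower (median 0.37). Over all genes 28.0% were higher and 30.6% lower. Spic, which in mouse drives red pulp macrophage development and is also among the macrophage markers above, read 5.92 ± 0.05 at 900 cGy and 4.02 ± 0.06 at 0 cGy (SD, n = 3 each; change 1.90, adjusted p = 6.08e-05, limma). Bach1 (0.64), the haem-sensing repressor of Hmox1, was higher, and Bach2 (-3.49, adjusted p = 5.27e-05, limma), its relative known from B cells, was lower. Nfe2l2 (0.40), an activator of Hmox1 and of ferritin genes, was higher, a call that was lost with spike-in scaling (0.14). The calls of Bach1 and Aco1 were lost in the same setting, with changes of 0.37 for Bach1 and 0.40 for Aco1.

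**Figure D3:**
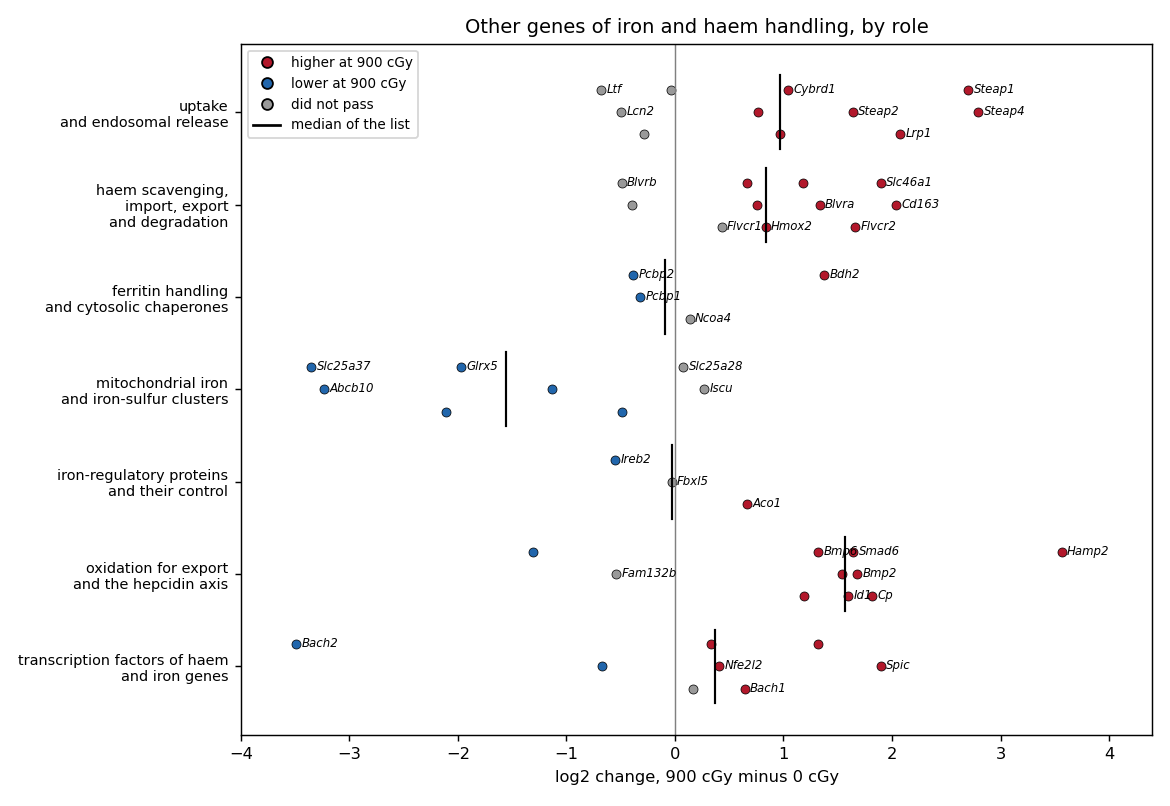
Log2 change, 900 cGy minus 0 cGy (x axis), of the 55 other tested genes of iron and haem handling, grouped by role (y axis). Each point is the brightest probe of a gene, red where higher, blue where lower and grey where it did not pass. Genes named in the text are labelled, except Exoc6, Mafg and Snx3. The vertical bar is the median of the list, which is -1.55 for the mitochondrial genes and 1.57 for the export and hepcidin genes.

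Markers of tissues beside the spleen also differed between the groups. All 8 exocrine pancreas markers were higher at 900 cGy (median log2 change 7.17), with a summed level between 890 and 1164 in the 900 cGy pools and of 2.01, 86.7 and 15.8 in 0 cGy pools 1 to 3. All 5 adipocyte markers were higher (median 3.74), with a summed level between 35.4 and 40.1 at 900 cGy and between 2.24 and 3.35 at 0 cGy. Hamp2 was highest of its group in the second 0 cGy pool, as was the pancreas sum, and lowest in the third, whereas the pancreas sum was lowest in the first. Slc40a1 read 4.94, 4.94 and 4.98 over the same 3 pools and Trf 5.21, 5.39 and 5.38. Of 7 hepatocyte markers Alb, Apoa1 and Cps1 were well above background on 0 arrays in both groups. Ttr was well above background on 3 of 3 arrays at 900 cGy and 0 of 3 at 0 cGy (at least 2.86-fold higher), Serpina1c was higher (0.75), Ahsg was lower (-1.88) and Fgb did not pass. The summed level of the list, nearly all of it Serpina1c, was between 3.89 and 4.49 at 900 cGy and between 2.30 and 2.78 at 0 cGy. The pancreas and fat sums differed with the dose in every pool, so the order of the 0 cGy pools says little about 900 cGy. The part of pancreas and fat in the changes of the iron genes cannot be told apart from the dose and was not tested.

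**Figure D4:**
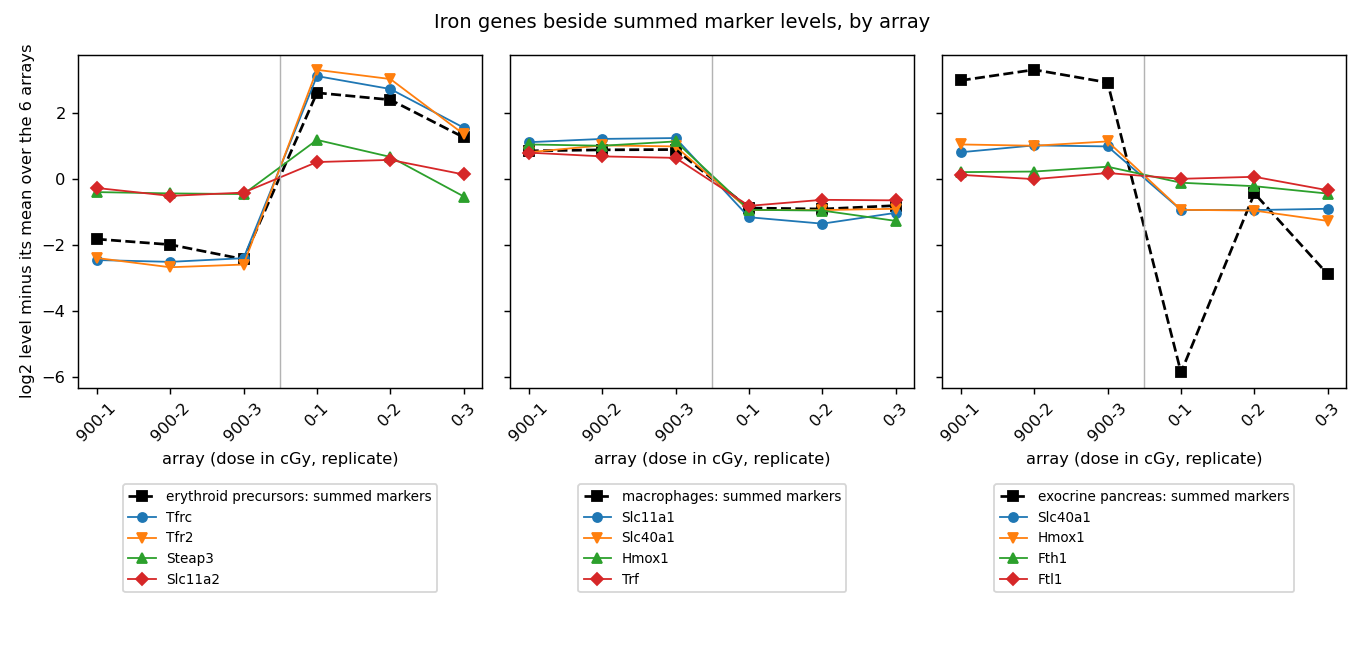
Log2 level of 4 iron genes in each panel (coloured lines) and log2 of the summed level of a marker list (black dashed line), each minus its mean over the 6 arrays (y axis), by array (x axis, 900 cGy pools left of 0 cGy pools). Tfrc and Tfr2 fall in the third 0 cGy pool with the erythroid sum. The pancreas sum varies between the 0 cGy pools and lies below every 900 cGy pool in each of them.

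Promoter windows of 300 bases were given by RefSeq (GRCm38.p6) for 6 of the 10 genes: Tfrc, Tfr2, Steap3, Slc11a1, Fth1 and Ftl1. They were searched on both strands for AGATAA and TGATAA, sequences bound by GATA factors, and for CACGTG, an E-box; the motifs do not overlap each other in the hits. TGATAA was found in 1 window of Tfr2 (chr5:137570725-137571024, plus strand) with its first base at -61 from the start, and AGATAA on the opposite strand in 1 window of Steap3 (chr1:120271031-120271330, minus strand) with its first base at -45. Both are shown with 12 bases on each side and the motif in capitals, as the matches found among the 6 genes. Of 32851 RefSeq windows of this length, 11.2% hold AGATAA, 9.05% TGATAA and 7.15% CACGTG, and neither GATA motif was found in the windows of Tfrc. A match is a description of the sequence, not a binding site.
Tfr2: gcctgtcagggcTGATAAggggccctctag
Steap3: gtccggagagtgTTATCTccctccagttat

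The genes whose values followed Tfrc and Hmox1 most closely over the 6 arrays were looked up among 14603 genes whose probe was above background on each array. For Tfrc they were Cldn13 (Pearson r = 0.99987), Fam55b (0.99983), Ctse (0.99975), Magoh (0.99968) and Cd24a (0.99954). All 5 were lower at 900 cGy, Cldn13 by the widest margin (-6.92) and Magoh by the narrowest (-0.76). For Hmox1 they were Prss29 (0.99992), Slc45a4 (0.99975), Tmem178 (0.99963), Dhx58 (0.99951) and Abhd14a (0.99943), all higher at 900 cGy. The 6 points fall into the 2 groups, so such values describe the contrast and the order of the pools, and no test was made.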

How the data were processed

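Spleen RNA of 6 pools was labelled with Cy3 and hybridised to Agilent arrays. The deposited intensity of each spot came from Agilent Feature Extraction 10.5.1.1 and, per the file headers, is background-subtracted and not scaled between arrays. The submitters' processing notes name the same program. A table of log2 values by the authors, compared with the scanner files, had the arrays' 75th percentiles equalised and each probe's median over the arrays removed, in the same direction, with column medians of -0.0252, 0.0181 and -0.00829 at 900 cGy and 0.0473, -0.00588 and -0.0460 at 0 cGy. It served as an alternative.

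Spots marked as outliers (91 to 146 per array) and 3671 control spots were left out, log2 intensity was scaled to each array's 75th percentile (1114 to 1182 at 900 cGy, 1152 to 1403 at 0 cGy), and spots of a probe were averaged. A probe was tested if every array of 1 group or of both had it well above background, by limma 3.58.1 (lmFit, eBayes) in R 4.3.3, after a check on simulated data. Probe positions are the files' (mm9).

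The genes, lists and markers were chosen with earlier results of these data known. The text names all 10 genes, the 2 largest called changes of each role list, and 5 nearest genes for Tfrc and Hmox1; other list members were named after their values were seen. Alternatives covered background correction, normalization, filters, slide row, replicate block and left-out pools. Replicate numbers did not pair the pools. Values of a few list members are not reported here.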

Additional observations from a re-analysis of the deposited data

How the results depend on the processing

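Over the alternatives that gave a value for them (up to 17), the changes of Trf, Tfrc, Tfr2, Slc11a1, Slc40a1 and Hmox1 kept their direction and their call. The count of the 10 genes past the threshold was 8 in the main setting and ranged from 6 (slide row 1 alone) to 9 (normexp with quantile normalization, or without 0 cGy replicate 3). Slide row 1 alone, chosen after seeing the data, has 4 arrays, of which 1 at 900 cGy, and called 12011 probes (6043 higher, 5968 lower), against 22807 (10488 higher, 12319 lower) in the main setting, and 6 pathway genes lower, against 12. Spike-in scaling moved the median change of all probes to -0.34 from -0.07 and called 6702 probes higher and 16089 lower, 29.4% higher against 46.0%; it left 4 of the 10 genes higher and 4 lower. Leaving out 1 pool gave between 19125 and 23814 probes. With the replicate block, 21232 probes, 8 of the 10 genes and 40 pathway genes passed; same-numbered pools correlated in their deviations at 0.07, 0.11 and -0.0083, so the numbers do not pair them. The Tfrc and Tfr2 difference reversed to -0.18 with normexp, -0.19 with normexp and quantile and -0.47 with probe A_51_P167876, and that of Fth1 and Ftl1 to -0.84 with A_55_P1983959; the cause was not tested. At 900 cGy, Tfrc probe A_51_P167876 gave background signal in every pool, so its change is only a bound and the direction of the -0.47 is not settled. Small changes that did not pass also reversed. With spike-in scaling these were Ftl1 (-0.079, A_55_P1968245), Ncoa4 (-0.13), Slc25a28 (-0.19), Iscu (-0.0034) and Mafg (-0.10). With normexp and quantile they were Slc25a28 (-0.0048) and Fbxl5 (0.0019). Leaving out 1 pool at a time, Ncoa4 A_55_P2016862 ranged from -0.027 to 0.23, Fbxl5 A_55_P1965194 from -0.084 to 0.054, Mafg A_66_P116632 from -0.010 to 0.27 and Snx3 A_55_P2025103 from -0.11 to 0.044; the first 3 reversed without 0 cGy replicate 3 and Snx3 without 0 cGy replicate 1.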
